A study of Mus musculus with 6 samples.

Results

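The 6 genes described here belong to the tumour necrosis factor (TNF) receptor and ligand families: the costimulatory receptors Tnfrsf4 (OX40), Tnfrsf18 (GITR) and Tnfrsf9 (CD137), the ligands Tnfsf4 (OX40 ligand) and Tnfsf18 (GITR ligand), and the death ligand Fasl (Fas ligand). T-bet peaks around them were taken by position, as every peak that overlapped one of 3 regions of the mouse build mm9. The regions were chr1:163250000-163800000 for the 3 ligand genes (550 kb), chr4:155330000-155460000 for Tnfrsf4 and Tnfrsf18 (130 kb) and chr4:150220000-150390000 for Tnfrsf9 (170 kb). They held 31 of the 8925 peaks deposited in the 3 lists: 0 of 78 in the T-bet knockout (KO) list, 25 of 7996 in wild-type (WT) replicate 1 and 6 of 851 in WT replicate 2. All libraries came from induced regulatory T cells (iTreg), grown for 7 days with 33 ng/ml TGF-β1 and 20 ng/ml IL-2 from sorted naive CD4 cells. The cells had been activated on plates coated with antibodies to CD3 and CD28 (10 µg/ml each), and the Balb/c mice were 4 to 10 weeks old. The KO cells are labelled as T-bet knockout and otherwise alike, and the same rabbit serum against T-bet was used on both genotypes. The series comprised 6 samples, of which 1 KO and 2 WT ChIP libraries had peak lists, and the 3 input libraries were not analysed here. The labels do not say how many mice gave each culture, so the spread between the WT libraries may be technical.

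T-bet belongs to the T-box family of transcription factors. It directs T helper 1 differentiation and is also made by a subset of regulatory T cells. OX40, GITR and CD137 are receptors on T cells that recruit TRAF adaptor proteins and signal to NF-κB when their ligands, usually shown on antigen-presenting cells, engage them. GITR and OX40 are known as abundant surface proteins of mouse regulatory T cells, and CD137 is known as a receptor induced by activation. Fas ligand, made by activated T cells and natural killer cells, triggers cell death through its receptor Fas.

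No genome of the peaks' build was used, so the sequence under the peaks is not shown. RefSeq promoter sequences (build GRCm38.p6, 250 bases before to 50 after a transcript start) were used to look for the letters that T-box proteins recognise, whose half-site reads TCACACCT, or AGGTGTGA on the other strand. These windows were not placed on mm9, so whether a peak covers one was not tested. The table gave 6 windows for 5 of the 6 genes: 1 each for Tnfsf18, Fasl, Tnfrsf4 and Tnfrsf18, and a pair for Tnfrsf9. None of the 6 held TCACACC on either strand, which 3.98% of all 32851 windows in the table held, and none held the shorter TCACAC, which 14.5% held. In a search chosen after that result, any 6 consecutive letters of the half-site were accepted, which 33.5% of all windows held. Of the 6 member windows, 2 held such a stretch, a share near that of all windows. They were 1 from a ligand gene and 1 from a receptor gene. Both are shown because they carry the longest matches among the members, with the matching letters in capitals.
Fasl (GRCm38.p6 chr1:161788446-161788745, minus strand): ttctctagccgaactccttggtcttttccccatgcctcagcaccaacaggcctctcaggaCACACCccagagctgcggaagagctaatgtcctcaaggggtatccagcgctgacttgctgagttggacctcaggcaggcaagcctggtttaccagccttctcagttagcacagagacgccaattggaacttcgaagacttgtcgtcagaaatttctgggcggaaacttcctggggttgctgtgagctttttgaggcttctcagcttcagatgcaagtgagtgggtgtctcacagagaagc
Tnfrsf18 (GRCm38.p6 chr4:156026072-156026371, plus strand): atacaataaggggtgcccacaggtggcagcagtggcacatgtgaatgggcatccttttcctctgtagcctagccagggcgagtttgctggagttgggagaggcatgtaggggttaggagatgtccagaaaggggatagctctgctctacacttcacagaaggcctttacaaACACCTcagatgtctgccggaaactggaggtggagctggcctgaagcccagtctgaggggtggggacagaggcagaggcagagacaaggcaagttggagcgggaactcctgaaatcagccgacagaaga
In the Fasl window the stretch CACACC began 190 bases before the transcript start. In the Tnfrsf18 window the stretch ACACCT began 79 bases before it. A match of 6 letters is a description of the sequence and does not show a binding site.

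Each list came from a single library, and its score is the authors' value for each peak, on a scale that the sources do not state. Scores are therefore ranked only within a list. The KO list was the shortest and replicate 1 the longest, and read depth, which bears on list length, is unknown. The deposited file names of the KO and replicate 2 lists open with a shared number, and the replicate 1 name opens with a different one. If this marks a batch, it cannot be told apart from what sets replicate 1 apart. With 1 KO library, genotype could not be tested, and no p-value is given for any comparison. Peak lists hold no expression values, so neither the cell type nor the loss of T-bet in the KO library was checked. Intervals (exact, 95%) cover counting error only.

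Taken as 1 set, the 3 regions carried more peaks per Mb than the genome as a whole in both WT libraries, and none in the KO library. The KO list gave 0 peaks over the 850 kb, against 29.4 peaks per Mb (19.03 to 43.4) in replicate 1 and 7.06 (2.59 to 15.4) in replicate 2. Over chromosomes 1 to 19 and X, the densities were 0.0296 peaks per Mb in the KO list, 3.03 in replicate 1 and 0.322 in replicate 2. The region borders were set with the peaks of these data known, so the high WT density describes the regions and is not a test of them. The 0 of 78 KO peaks has an exact upper bound of 4.62% of that list, and the limit set by 3 counts of 78 is 3.85%. The regions held 0.313% of the replicate 1 list and 0.705% of the replicate 2 list, both below these limits. The KO list is thus too short to show that its share in the regions is lower than in the WT lists. The KO list had no peak anywhere on chromosome 4, and its 3 peaks on chromosome 1 lay at least 78.2 Mb from the ligand region. The absence of KO peaks is therefore shared with the whole of chromosome 4 and is not particular to these genes. None of the 25 replicate 1 peaks and none of the 6 replicate 2 peaks met a KO peak, where 0.550% of all replicate 1 peaks and 5.41% of all replicate 2 peaks did.

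**Figure D1:**
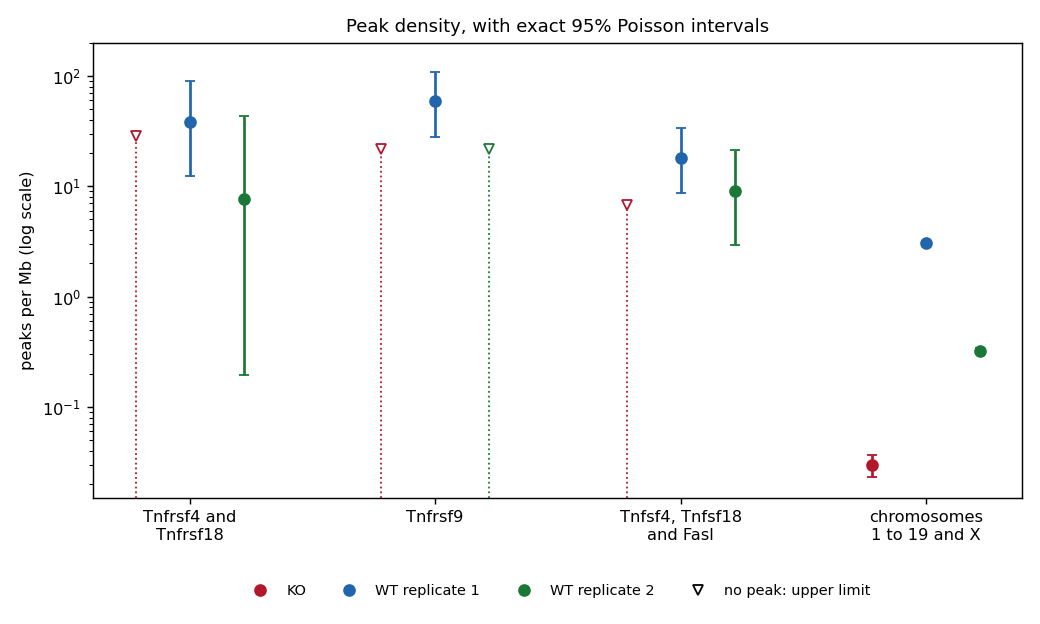
Peaks per Mb (log axis) in the 3 regions and over chromosomes 1 to 19 and X, for KO, WT replicate 1 and WT replicate 2, with exact 95% Poisson intervals as bars. Open triangles mark the upper limit where a list held no peak. The replicate 1 points stand at 18.2 peaks per Mb for the ligand region, 38.5 for Tnfrsf4 and Tnfrsf18 and 58.8 for Tnfrsf9. The genome point of that list is 3.03. The replicate 2 points stand at 9.09 for the ligand region and 7.69 for Tnfrsf4 and Tnfrsf18, with 0.322 for the genome. The replicate 2 interval for Tnfrsf4 and Tnfrsf18 (0.195 to 42.9) spans that genome value.

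The ligand region, the longest of the 3, held the largest set of peaks found in both WT libraries. Per Mb, replicate 1 was less dense here (18.2) than in the Tnfrsf4 and Tnfrsf18 region (38.5) or the Tnfrsf9 region (58.8). Replicate 2 had 9.09 peaks per Mb here and 7.69 in the Tnfrsf4 and Tnfrsf18 region. In RefSeq order along chromosome 1, Tnfsf4 is followed by Tnfsf18 and Fasl with no other protein-coding gene between them, Prdx6 precedes them and Suco follows. No KO peak lay in the region, against 10 peaks in replicate 1 and 5 in replicate 2. All 5 replicate 2 peaks (47.8 to 100%) overlapped a replicate 1 peak, where 85.4% of the whole replicate 2 list did. Of consecutive windows of 550 kb laid over the genome, 2.88% held at least 10 replicate 1 peaks and 0.313% held at least 5 replicate 2 peaks. Only 1.15% of these windows held any KO peak, so the lack of KO peaks is not particular to this region.

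The highest ligand-region peak in replicate 1 was chr1:163696695-163697107, with a score of 734, the 62nd highest of the 7996. Its replicate 2 counterpart, chr1:163696786-163697115, scored 110 and ranked 415th of 851, and the pair shared 322 bp. A neighbouring site 5.13 kb away between midpoints, chr1:163691550-163691995, scored 423 in replicate 1 (rank 263) and 131 in replicate 2 (rank 294). The pair thus stood high in replicate 1 and near the middle or in the upper part of replicate 2. Together with the unshared replicate 1 peak chr1:163703184-163703335 (score 120), these sites formed a group of 3 replicate 1 peaks over 11.8 kb.

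The other shared ligand-region sites lay apart from this group. The site chr1:163734565-163734931 scored 355 in replicate 1 and 74.3 in replicate 2, where 8.23% of the list scored lower. The site chr1:163601028-163601425 scored 222 in replicate 1 and 134 in replicate 2, the highest replicate 2 score of all 3 regions. Its midpoints in the 2 libraries were 3 bp apart. The fifth shared site, chr1:163366919-163367059, was among the weakest peaks of replicate 1, with a score of 73.6 and 2.21% of the list below it, and it lay wholly inside a replicate 2 peak of 456 bp with a score of 83.9. An unshared replicate 1 peak lay 769 bp from it. The order of the scores thus differed between the libraries: the site highest in replicate 1 stood below 2 others in replicate 2, and the site highest in replicate 2 stood below 3 others in replicate 1.

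The ligand-region replicate 1 peaks without a counterpart scored 166 or less. They were chr1:163665050-163665340 (score 166), the peak of score 120 named above, chr1:163367829-163367957 (score 112), chr1:163306171-163306328 (score 86.4) and chr1:163325334-163325495 (score 75.8). The peaks were unevenly spread: no list held a peak in the 233 kb of chr1:163367958-163601015, which divides the region into a left side of 4 replicate 1 peaks, scoring at most 112, and a right side of 6, scoring 120 to 734. Replicate 2 had 1 peak on the left and 4 on the right. Which ligand gene lies nearest each peak was not determined, since no mm9 gene positions were used here.

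**Figure D2:**
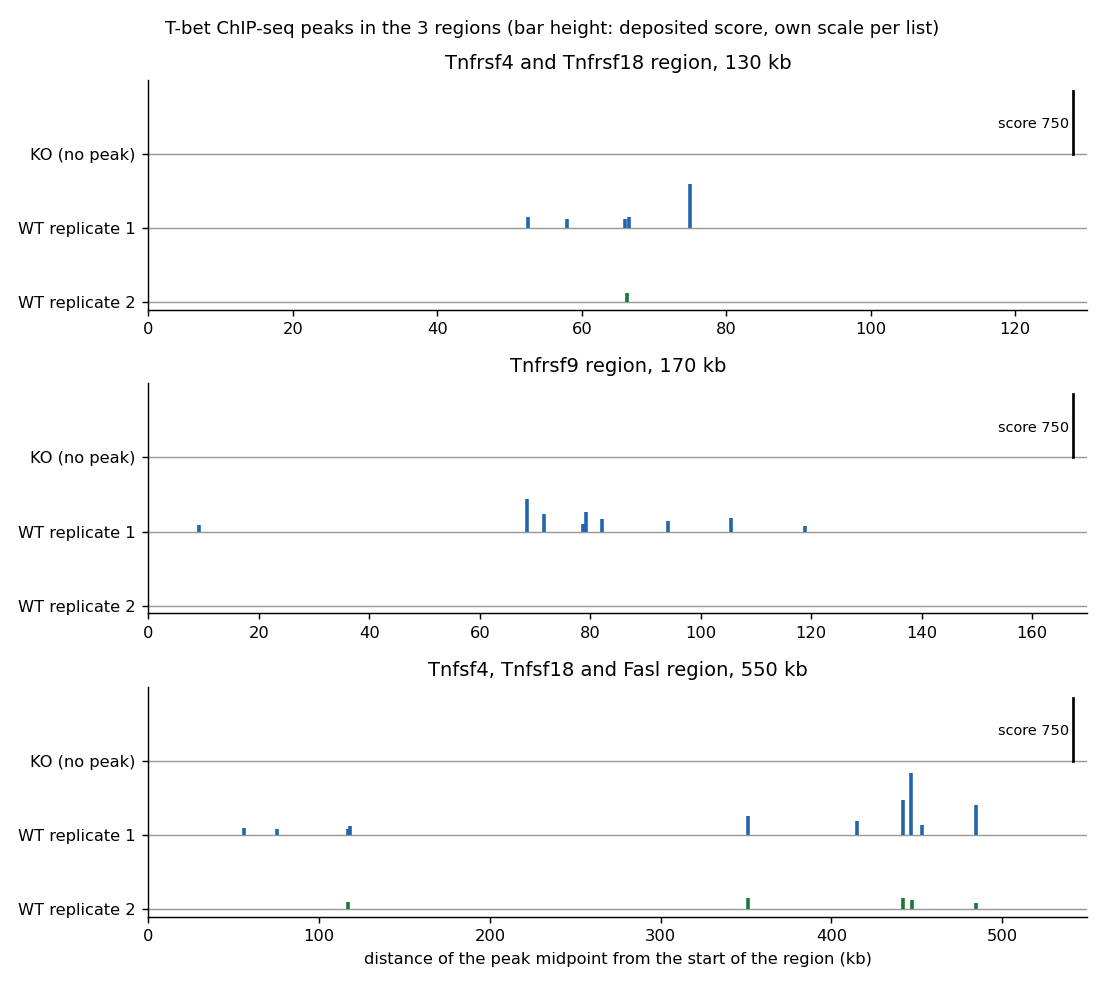
Peaks of the KO list and of WT replicates 1 and 2 in the 3 regions, by distance of the midpoint from the region start (kb). Bar height is the deposited score on one drawing scale (the black bar marks 750), though scores of different lists are not comparable levels. The KO rows are empty, the right side of the ligand region holds the highest bars, and the Tnfrsf9 region has bars in replicate 1 alone.

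The Tnfrsf4 and Tnfrsf18 region held a single group of replicate 1 peaks when neighbours within 10 kb were joined. These genes are direct neighbours in RefSeq order, between Sdf4 and Ttll10. The KO list had no peak there, replicate 1 had 5 within 22.7 kb, and replicate 2 had 1. Midpoints of neighbouring replicate 1 peaks lay 0.530 to 8.49 kb apart, so joining within 5 kb breaks up this group. Of consecutive windows of 130 kb, 1.28% held at least 5 replicate 1 peaks and 3.20% held at least 1 replicate 2 peak. Any KO peak lay in 0.291% of these windows.

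The peak that replicate 2 called, chr4:155395857-155396579, scored 111, close to that list's median of 108. It spanned 2 separate replicate 1 peaks, chr4:155395852-155396058 (score 112) and chr4:155396346-155396625 (score 133), which were 287 bp apart. It covered 97.6% of the first and 83.6% of the second. The highest replicate 1 peak of the region, chr4:155404798-155405158, scored 526 and ranked 145th in its list, and replicate 2 had no peak over it. A missing counterpart was common among high replicate 1 peaks. Of those scoring at least 200, 35.2% met a replicate 2 peak, and of the 851 highest, 46.3% did. The share among peaks ranked as high as this one was not counted. The remaining replicate 1 peaks, chr4:155382482-155382709 (score 135) and chr4:155387935-155388134 (score 114), were not met either. The strongest peak in the OX40 and GITR region was thus seen in 1 of the 2 WT libraries. The stretch with 2 mid-ranked replicate 1 peaks was called in both, as 1 wide peak in replicate 2.

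The Tnfrsf9 region was dense in replicate 1 and empty in the other lists. In RefSeq order Tnfrsf9 lies between Park7 and Per3. The KO list and replicate 2 had no peak in the region, against 10 in replicate 1, or 58.8 peaks per Mb (28.2 to 108). Of consecutive windows of 170 kb, 0.200% held at least 10 replicate 1 peaks. A replicate 2 peak lay in 4.07% of these windows and a KO peak in 0.367%, so an empty window was usual in those lists. The highest was chr4:150288343-150288809, with a score of 384 (rank 330), followed by chr4:150299150-150299382 (score 233), chr4:150291500-150291697 (score 209), chr4:150325239-150325486 (score 163) and chr4:150302024-150302208 (score 153). The other 5 scored 72.5 to 124. A group of 6 peaks lay within 13.9 kb, from chr4:150288343 to chr4:150302208, and held the 3 highest. Of these 6, the peaks chr4:150298475-150298686 and chr4:150298689-150298822 were 2 bp apart. Merging peaks within 500 bp left 8 in the region. With scores of at least 100, 6 of the 10 were kept.

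Replicate 2 had a peak 37.0 kb before the Tnfrsf9 region, chr4:150182532-150183013, with a score of 113, which overlapped a replicate 1 peak. The next replicate 1 peak, chr4:150183449-150183656 with a score of 101, ended 36.3 kb before the border. On the far side, the nearest replicate 1 peak was 917 kb away. Beside the ligand region, a replicate 2 peak with a score of 92.0 ended 10.3 kb before the border and a replicate 1 peak with a score of 119 began 6.02 kb after it, neither with a counterpart. The Tnfrsf4 and Tnfrsf18 region stood clear of other peaks: the nearest in replicate 1 were 124 kb before it and 115 kb after it, with scores of 88.4 and 80.8. The closest replicate 1 peaks inside the borders scored 86.4 and 355 in the ligand region, 135 and 526 in the Tnfrsf4 and Tnfrsf18 region, and 80.3 and 72.5 in the Tnfrsf9 region. Replicate 2 had a peak at the right end of the ligand region as well, the one with a score of 74.3 over the replicate 1 peak with a score of 355.

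Across the 3 regions, replicate 2 called a peak over 7 of the 25 replicate 1 peaks (28.0%, interval 12.1 to 49.4%). Over the whole replicate 1 list it did so for 9.50%. The interval treats peaks as independent, yet neighbouring peaks are not, and 2 of the 7 met the same replicate 2 peak. The regions were also chosen with these data known, so the 2 shares are a description and no test of a difference. The 7 came from the ligand region (5 of 10) and the Tnfrsf4 and Tnfrsf18 region (2 of 5), with 0 of 10 from the Tnfrsf9 region. In the other direction, all 6 replicate 2 peaks (54.1 to 100%) met a replicate 1 peak, where 85.4% of that list did, so this share is near that of the whole list. Overlap of at least 1 bp counted as a meeting. Under a reciprocal overlap of at least 50%, 4 of the 25 met (16.0%, against 8.25% of the whole list), because the wide replicate 2 peaks over the paired Tnfrsf4 and Tnfrsf18 peaks and over the weakest ligand-region site dropped out. A shortened replicate 1 list leaves too few region peaks to tell whether the difference from the whole list depends on list length. With replicate 1 cut to its 851 highest peaks, 3 of 5 region peaks met replicate 2, or 60.0%, where 46.3% of the shortened list did, and 3 of the 6 replicate 2 peaks met it, or 50.0%, where 46.3% of the replicate 2 list did.

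Members ranked from near the bottom of their lists to near the top of the replicate 1 list. The median replicate 1 score was 133 for the 25 peaks and 108 for the whole list, and 5 of the 25 were in the top 10% of the list, which began at a score of 263. The median replicate 2 score was 110 for the 6 peaks and 108 for the whole list, and 0 of the 6 were in its top 10%. Within the regions, the 7 replicate 1 peaks with a counterpart had medians of 222 in score and 367 bp in width, and the 18 without one had medians of 122 in score and 191.5 bp in width. Over the whole replicate 1 list, peaks with a counterpart had a median score of 261.

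**Figure D3:**
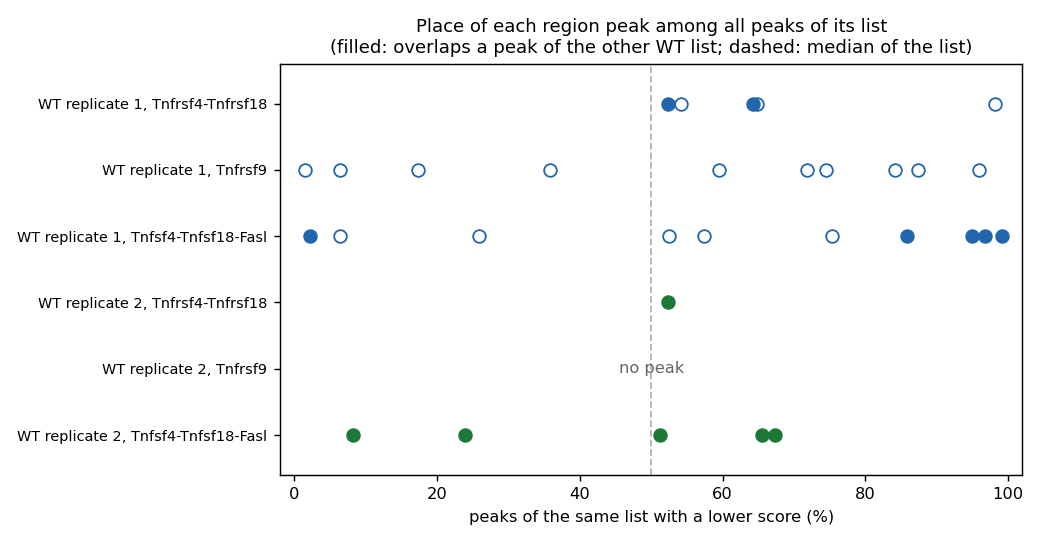
Each peak of the 3 regions by the share of its own list with a lower score (x axis, %), in a row for each WT list and region. Filled circles overlap a peak of the other WT list, and the dashed line is the list's median. In the ligand region 4 filled circles of replicate 1 lie at 85.8% or above and 1 lies at 2.21%, whereas the replicate 2 circles lie between 8.23% and 67.3%.

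Because recurrence in replicate 2 went with score over the whole list, it was also counted within score bands, chosen after the peaks were seen. Of members with a replicate 1 score of at least 200, 4 of 8 (15.7 to 84.3%) met replicate 2, where 35.2% of the list in that band did. Between 100 and 200, 2 of 10 (2.52 to 55.6%) met it, where 6.01% did, and under 100, 1 of 7 (0.361 to 57.9%), where 2.23% did. In every band the interval of the members spans the share of the list. The regions differed within the highest band: all 4 ligand-region peaks met replicate 2, against 0 of 3 in the Tnfrsf9 region and 0 of 1 in the Tnfrsf4 and Tnfrsf18 region. These counts were too small to compare the regions with each other, and neighbouring peaks are not independent.

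**Figure D4:**
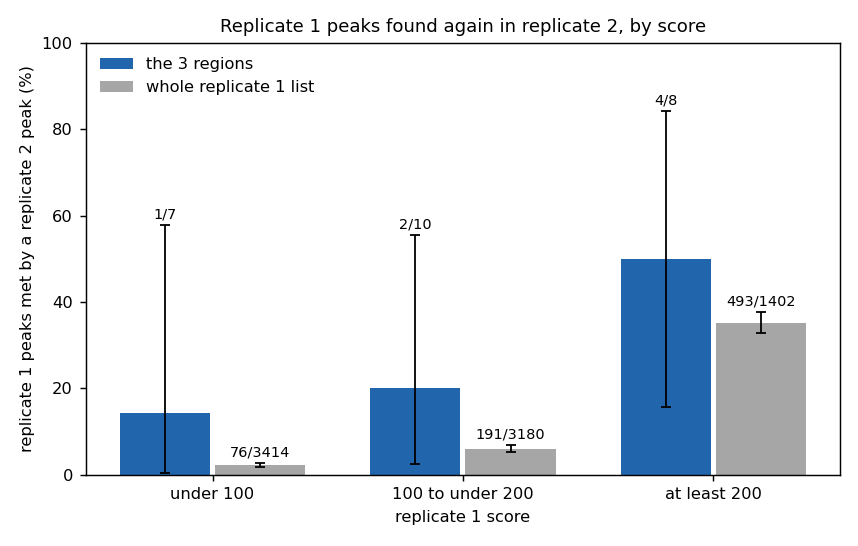
Share of WT replicate 1 peaks that overlap a replicate 2 peak (y axis, %), in 3 bands of the replicate 1 score, for the 3 regions and for the whole list. Bars carry exact 95% binomial intervals and the number met over the number of peaks. The regions reach 50.0% in the highest band, where the whole list reaches 35.2%, and the intervals of the regions are wide.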

How the data were processed

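ChIP-seq peak lists were available for 1 KO and 2 WT libraries of iTreg cells. The score deposited by the authors with each peak was used to rank, band and filter peaks within a list. CASAVA, Bowtie2, MACS 1.4 and mm9 are named, per the submitters' processing notes. Tool settings and peak-call controls: not given in the sources used here. The lists have 5 columns and no header, and starts were read as counted from 0 (BED) and are printed counted from 1. No list held peaks overlapping each other, and all lay within the mm9 chromosome lengths of GenomeInfoDb 1.38.1.

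Peaks of different lists sharing at least 1 bp were counted as counterparts. Peaks were grouped where midpoints of neighbours lay within 10 kb. Shares carry exact (Clopper-Pearson) and densities exact Poisson 95% intervals. Windows of each region's length were laid end to end over the 19 autosomes and X. The overlap count was checked on simulated data, where it found 200 of 200 planted overlaps. Promoters and gene order came from RefSeq tables (GRCm38.p6), matched by symbol, with all 6 genes found in the gene table and 5 in the promoter table. Scripts ran under Python 3.11.15 with scipy 1.17.1, numpy 2.4.6 and, for figures, matplotlib 3.10.9. Samples were grouped by title.

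The genes, regions and analyses were chosen with earlier results of these data known. All peaks shared between lists, all replicate 2 and KO peaks of the regions and the 5 highest replicate 1 peaks of each region were to be named, with every peak allowed where a list held 10 or fewer. Alternatives were reciprocal overlap (at least 50%), gaps of up to 1 kb, midpoint distances of up to 250 bp, merging within 500 bp, scores of 100 or more, a shortened replicate 1 list, borders moved by 50 kb or 10 kb, other joining distances, shifted windows, other motif letters and leaving out each WT replicate.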

Additional observations from a re-analysis of the deposited data

How the results depend on the processing

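The KO list had 0 peaks in the regions under every alternative that was run. None of them could have given another count, so this is no check of the result. Chromosome 4 held no KO peak, and the nearest KO peak on chromosome 1 lay 78.2 Mb from the ligand region. With the replicate 1 list shortened to the 851 peaks of replicate 2, 5 replicate 1 peaks lay in the regions in place of 25, of which 3 met replicate 2 (60.0%, against 46.3% of the shortened list), 3 replicate 2 peaks met replicate 1 (50.0%, against 46.3% of the list), and the WT sites (overlapping WT peaks joined) fell to 8 in place of 24. This alternative keeps fewer peaks by construction. A reciprocal overlap of at least 50% left 4 of the 7 replicate 1 peaks met (16.0% of the 25, against 8.25% of the list). Under the other alternatives for peaks, borders and overlap, replicate 1 had 18 to 31 region peaks, replicate 2 had 4 to 8, and 5 to 8 replicate 1 peaks met replicate 2. The WT sites numbered 6 without replicate 1 and 25 without replicate 2, so replicate 1 decides their number. Widening the borders by 50 kb brought 1 replicate 2 peak into the Tnfrsf9 region. Joining replicate 1 peaks within 10 kb gave 13 groups, against 19 within 5 kb and 9 within 20 kb. Accepting any 6 consecutive half-site letters, chosen after seeing the data, gave 2 member promoters in place of 0. Of 85 further values for single regions, medians, shares, windows and region peaks met by KO, 76 kept and 9 moved. The 76 include every count of region peaks met by KO, which could not change. They also include values of a list that the alternative left untouched, so the tally does not measure how stable the results are. Kept means within 1.5 times the reported value or, for shares, within its interval. No paired analysis was possible because the KO group has 1 library and the inputs, which share replicate numbers with the WT libraries, were not analysed here. Depth is unknown here and limits what counts of different lists can show, and a site without a peak in a shorter list is not shown to be unbound.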
